A study of Mus musculus with 199 samples.

Results

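Hepatocyte transcripts were compared among 31 RNA-seq libraries, each made from 10 cells of a small-cell lung cancer colony in the liver of an F1 mouse, out of 199 libraries in the series. The libraries were ordered by the level of albumin mRNA (Alb, ENSMUSG00000029368, chromosome 5, 90460897 to 90476602 on GRCm38). The 15 libraries with the most Alb are called Alb-high, the 15 with the least are called Alb-low, and the middle 1 was left out. The level is in CPM, counts scaled by each library's total over all genes. The tumour cells were KP1, a mouse small-cell lung cancer line labelled Rb1-/-Trp53-/-, and this genotype is shared by all the libraries compared here. F1 mice, used in the study as immunocompetent hosts, carried the colonies. The livers were frozen and cut into 8 µm sections, and cells were taken by laser capture microdissection. Their poly(A) RNA was turned into cDNA, which was amplified by a poly(A) PCR before library preparation by tagmentation. Colonies of the same line in nude mice, which lack a thymus and so most T cells, gave 33 further libraries of 10 cells, and F1 liver material that was pooled and then split gave 24 controls. The labels name no treatment, age or number of animals, so every p-value measures the spread between captures and not between animals.

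Hepatocytes are the main cells of the liver and supply most proteins of the blood plasma, with albumin as their best known product. They also make apolipoproteins, transferrin, protease inhibitors of the serpin family, fibrinogen, the major urinary proteins of the mouse and many enzymes of metabolism. Tumour cells of neuroendocrine origin do not normally make most of these, so a capture from a colony in liver can hold RNA of the host tissue beside that of the tumour. In libraries made from several cells, fewer cells of a type and less RNA per cell cannot be told apart.

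The promoters of liver genes often carry sites for the factor HNF1, whose binding site holds the letters GTTAAT. They are shown here for Alb, which ordered the libraries, and for 3 genes of the hepatocyte lists that were higher in Alb-high libraries under one of the filters below. Each run gives the 150 bases before the RefSeq transcript start (GRCm38.p6), with GTTAAT, or ATTAAC where the site lies on the other strand, in capitals. They lie at chr5:90460720-90460869 on the plus strand for Alb, chr3:83049864-83050013 on the minus strand for Fgb, chr12:103773634-103773783 on the minus strand for Serpina1d and chr6:121838391-121838540 on the plus strand for Mug1.
Alb: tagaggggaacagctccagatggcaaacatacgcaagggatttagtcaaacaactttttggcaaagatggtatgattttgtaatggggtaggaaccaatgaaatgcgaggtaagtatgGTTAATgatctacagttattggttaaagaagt
Fgb: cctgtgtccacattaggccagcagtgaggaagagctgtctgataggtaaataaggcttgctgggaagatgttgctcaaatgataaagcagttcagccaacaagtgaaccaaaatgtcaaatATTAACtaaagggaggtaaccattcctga
Serpina1d: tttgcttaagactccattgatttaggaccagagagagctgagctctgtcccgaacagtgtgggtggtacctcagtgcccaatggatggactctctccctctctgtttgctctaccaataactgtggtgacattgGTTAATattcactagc
Mug1: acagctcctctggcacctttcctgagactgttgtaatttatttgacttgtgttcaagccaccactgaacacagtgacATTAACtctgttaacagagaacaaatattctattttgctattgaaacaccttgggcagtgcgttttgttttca
These letters, on either strand, were in the 250 bases before the start of 6.43% of all 32851 RefSeq promoters and of 17.5% of the 177 promoters matched to 154 of 207 genes in the hepatocyte lists. Among the promoters of the hepatocyte genes called below, 6 of 19 held them, and the 3 genes shown with Alb were picked because they hold them. TATAAA, the core of the TATA box, also searched on either strand, was likewise in a larger share of the hepatocyte promoters (22.6%) than of all (12.4%), and in 3 of the 19 (15.8%). A match describes the letters of a window and is no evidence of binding.

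Alb was at 0 counts in 7 of the 31 libraries, which allows up to 0.588 to 1.82 CPM in these libraries (3 counts over each library's total, counting error only). In Alb-low libraries it ranged from 0 to 7.64 CPM with a median of 0.546 CPM, and in Alb-high libraries from 10.7 to 542 CPM with a median of 156 CPM. The middle library had 8.56 CPM, so the libraries on either side of the division lay close together. The 28 libraries of 10 KP1 cells grown as spheroids held 0 Alb counts in all. The groups were chosen by these measured Alb levels, which are given with no test.

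The libraries had 1646395 to 5432858 gene counts. Total counts, the share of counts from ERCC spike-in transcripts and the number of genes detected were not found to differ between Alb-high and Alb-low libraries. Genes detected at a common depth numbered 8210 ± 1161 and 7818 ± 957 (SD, n = 15 each; adjusted p 0.580, two-sided permutation test over 3 measures). The ribosomal protein pseudogene Rpl19-ps11 was under 200 CPM in 5 Alb-low libraries and 1 Alb-high library, and the part of this split in the results was not tested beyond the counts given below. Replicate 32 stood apart from the other Alb-low libraries. It had 2 Alb counts but 3780 CPM over the plasma protein genes, among them 760 CPM of Ahsg, which encodes fetuin-A, and 541 CPM of Rbp4, the carrier of retinol. The genes named in the genotype were still counted, with Rb1 in 12 and Trp53 in 13 libraries of each group. The table counts whole genes, so loss of single exons cannot be seen in it.

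The summed levels of other hepatocyte products were higher in Alb-high libraries, though no single gene was called in the test below. The 65 other plasma protein genes in the table had a summed level of 284 to 3627 CPM in Alb-high libraries, with a median of 1284 CPM. In Alb-low libraries the sum was 5.61 to 3780 CPM with a median of 139 CPM. Of the 15 Alb-high libraries, 12 lay above every Alb-low library except replicate 32, and 0 lay above that library. The mean was 3.72 times higher in Alb-high libraries, or 8.89 times without replicate 32. Per library a median of 35 of these genes had counts in Alb-high libraries and 11 in Alb-low libraries. Only 3 of the 65 reached a mean of 5 CPM in spheroids. The 62 others had 1235 ± 926 CPM in Alb-high and 318 ± 744 CPM in Alb-low libraries (SD, n = 15 each). For these 62, 10 Alb-high libraries lay above every Alb-low library except replicate 32.

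The 21 major urinary protein genes bind and carry volatile signals in mouse urine, and were summed to 1192 ± 1009 CPM in Alb-high and 196 ± 270 CPM in Alb-low libraries (SD, n = 15 each). Of the Alb-high libraries, 8 lay above every Alb-low library and 1 had 0 counts. None of these genes reached 5 CPM in spheroids, and the members share long stretches of sequence, so counts of single members are uncertain. The 104 genes of liver metabolism had 2148 ± 2161 CPM in Alb-high and 808 ± 499 CPM in Alb-low libraries. Here 10 members reached 5 CPM in spheroids. The 94 others had 737 ± 664 CPM in Alb-high and 128 ± 141 CPM in Alb-low libraries. The 16 acute phase genes, induced in liver by inflammation, had 61.2 ± 64.5 CPM in Alb-high and 50.3 ± 39.7 CPM in Alb-low libraries, with wide overlap. The 14 of them below 5 CPM in spheroids had 26.7 ± 54.9 CPM in Alb-high and 1.92 ± 3.98 CPM in Alb-low libraries. Their medians were only 2.79 and 0.225 CPM, and the highest Alb-high library had 214 CPM.

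**Figure D1:**
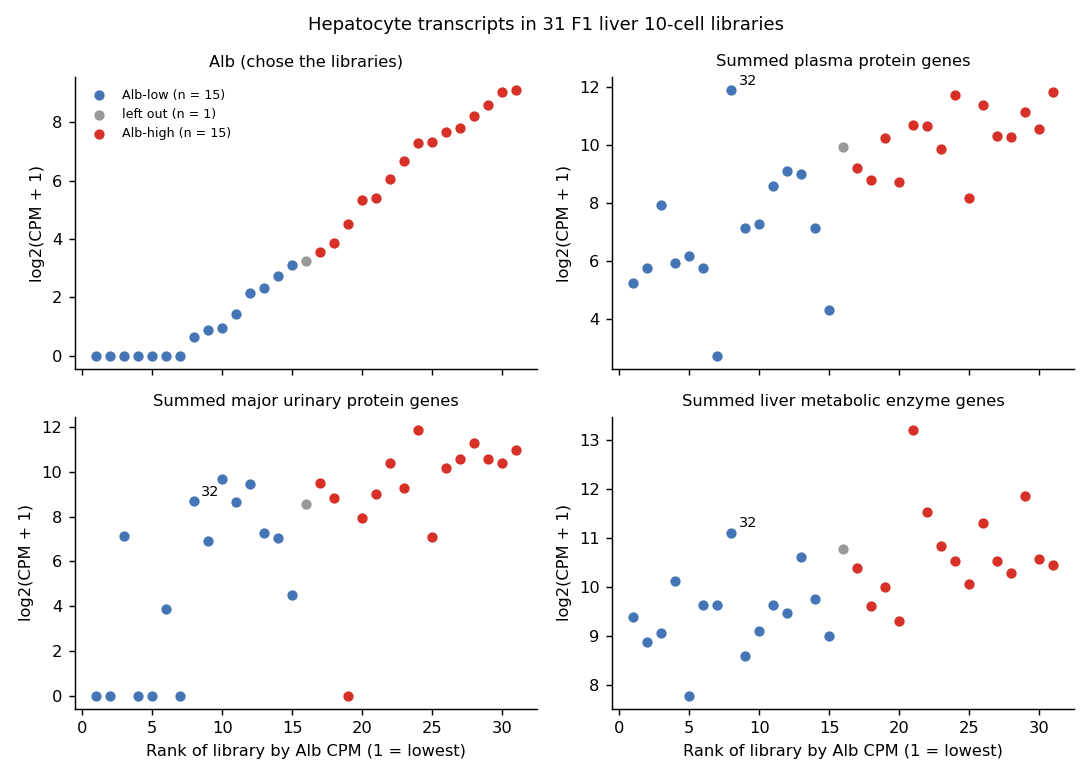
Each point is 1 of the 31 F1 liver 10-cell libraries, placed by its rank in Alb (x axis, 1 is lowest) and by log2(CPM + 1) of Alb or of the summed genes of 3 hepatocyte lists (y axis). Blue marks Alb-low, grey the middle and red Alb-high libraries, and replicate 32 is labelled. Plasma protein medians are 139 CPM in Alb-low and 1284 CPM in Alb-high libraries, with replicate 32 at 3780 CPM, and libraries within each group scatter widely.

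Gene by gene, no transcript passed the test after adjustment. Over 6045 genes with enough counts, edgeR's quasi-likelihood test called 0 (0%) at an adjusted p under 0.05. At an unadjusted p under 0.05 there were 408 genes (6.75%), of which 211 were higher (3.49%) and 197 lower (3.26%) in Alb-high libraries. On the same genes DESeq2 called 26, 15 higher and 11 lower, of which 3 were on the hepatocyte lists (Apoa1, Serpina3k and Mup14, all higher). limma-voom called 2, Apoa1 and Ttr, the latter encoding the thyroxine carrier transthyretin. The spread between captures was wide, with a biological coefficient of variation of 1.47. In simulated data for this comparison, 5705 genes kept enough counts to be tested. Of the changed genes among them, 17.8% of 45 changed 4-fold and 92.3% of 39 changed 32-fold were called. Changed genes that failed the filter are not counted in these shares.

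Serpina3k (ENSMUSG00000058207, chromosome 12, 104338486 to 104346144), a serine protease inhibitor of plasma, had the smallest p of the genes that were higher. It was at 0 to 251 CPM with a median of 26.1 in Alb-high libraries, and at 0 to 4.62 CPM with a median of 0 in Alb-low libraries. It had counts in 12 and 4 libraries, and 10 Alb-high libraries lay above all Alb-low ones, while the others overlapped them. Its log2 fold change was 5.80 (SE 1.32, adjusted p 0.413, edgeR), and spheroids held 0 counts. Apoa1 (chromosome 9, 46228580 to 46230466), the main protein of high-density lipoprotein, had 0 to 1238 CPM with a median of 62.04 in Alb-high libraries and 0 to 113 CPM with a median of 0 in Alb-low libraries. Counts were found in 14 Alb-high but 2 Alb-low libraries, one of which was replicate 32. The log2 fold change was 4.75 (SE 1.39, adjusted p 0.413, edgeR). The Alb-high mean of Apoa1 was 137 CPM with and 58.5 CPM without replicate 4, its highest library. Without the Alb-low replicate 32, Apoa1 was the only gene called (adjusted p 0.000326).

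Fabp1 (chromosome 6, 71199827 to 71205023), which binds fatty acids in the hepatocyte cytosol, had 0 to 366 CPM with a median of 37.7 in Alb-high and 0 to 41.1 CPM with a median of 0 in Alb-low libraries. Its groups overlapped in 8 Alb-high libraries (log2 fold change 4.56, SE 1.34, adjusted p 0.413, edgeR). Trf (chromosome 9, 103204001 to 103230444), the iron carrier transferrin, had 0 to 485 CPM with a median of 117 in Alb-high and 0 to 264 CPM with a median of 5.39 in Alb-low libraries. The highest Alb-low value was again replicate 32, and the next was 45.7 CPM. The log2 fold change of Trf was 2.55 (SE 1.04, adjusted p 0.597, edgeR). Mup14 (chromosome 4, 61300023 to 61304000) had 0 to 810 CPM with a median of 266 in Alb-high and 0 to 73.9 CPM with a median of 3.51 in Alb-low libraries. Of the Alb-high libraries, 11 lay above all Alb-low ones (log2 fold change 3.97, SE 1.05, adjusted p 0.413, edgeR). The gene CR550303.1 had the same count as Mup14 in all 88 libraries compared, so both are 1 uncertain value.

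Gstp1 (chromosome 19, 4035407 to 4037921), a glutathione transferase, is also made by the tumour line, with 342 ± 171 CPM in 28 of 28 spheroid libraries. Trf had 5.04 ± 15.1 CPM in spheroids, with counts in 7 of 28. Gstp1 had 70.2 to 6653.5 CPM with a median of 457 in Alb-high and 107 to 1233 CPM with a median of 256 in Alb-low libraries. The groups overlapped broadly, and 2 Alb-high libraries lay above all Alb-low ones (log2 fold change 1.94, SE 0.53, adjusted p 0.413, edgeR). Its Alb-high mean was 1008 CPM with and 605 CPM without replicate 4. Scp2, which carries sterols and was on the same list, is also made by spheroids (140 ± 75.2 CPM) and had a median of 83.1 CPM in Alb-high and 125 CPM in Alb-low libraries. Hamp2, related to the iron hormone hepcidin, had medians of 15.5 and 42.4 CPM and 27.1 ± 19.6 CPM in spheroids. Neither Scp2 nor Hamp2 passed an unadjusted p under 0.05.

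**Figure D2:**
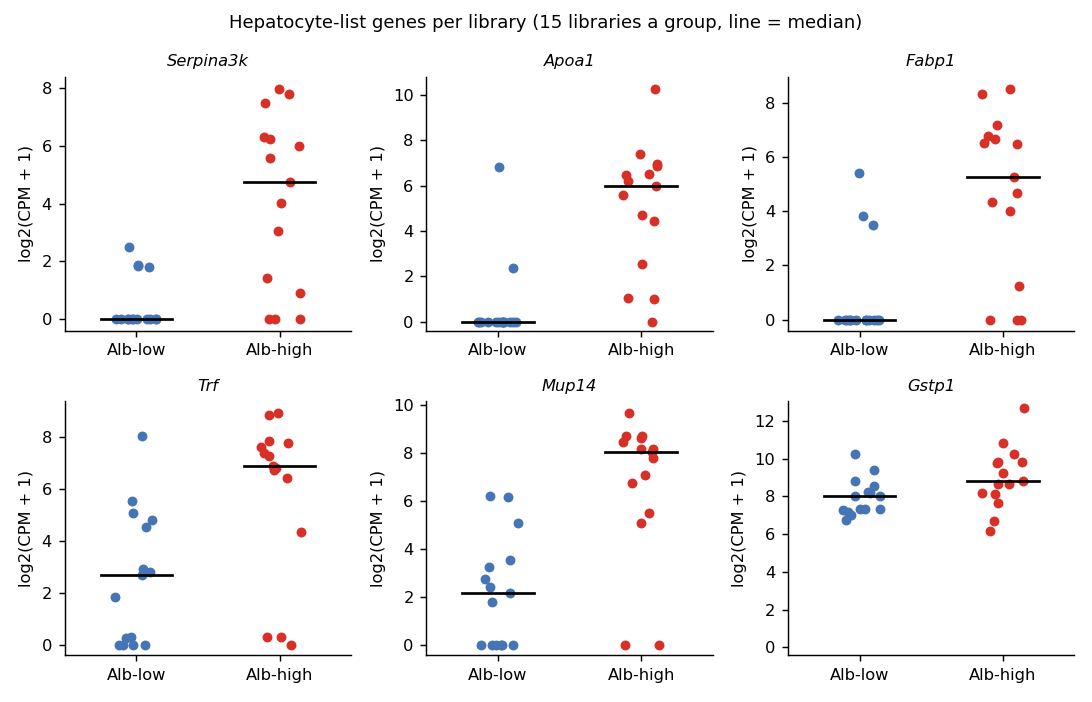
Each point is 1 library, at log2(CPM + 1) of the gene (y axis), in the 15 Alb-low (blue) and 15 Alb-high (red) F1 liver libraries, and black lines are medians. Serpina3k, Apoa1 and Fabp1 have medians of 0 CPM in Alb-low libraries, while Gstp1 has counts in all 30.

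Of the plasma protein genes, 9 had enough counts for the test, and all 9 had a positive log2 fold change (median 2.55, against -0.04 over all 6045 genes). Genes can pass the filter through 1 group alone, so these 9 are no sample of the 65. The 5 with an unadjusted p under 0.05 were Serpina3k, Apoa1, Ttr, Trf and Apoc1. The others included Apoa2 (log2 fold change 1.21, SE 1.17), Rbp4 (0.62, SE 0.99) and Apoe (0.50, SE 0.95), which are an apolipoprotein of high-density lipoprotein, the retinol carrier and an apolipoprotein that other cells also make. Of the major urinary protein genes, 4 were tested, with a median log2 fold change of 3.36, and Mup3, Mup7 and Mup14 had an unadjusted p under 0.05. Of the liver metabolism genes, 9 were tested with a median of 0.49, and Gstp1 and Fabp1 were the 2 under that p. All 9 plasma protein and all 4 major urinary protein genes were also positive with RLE and TMMwsp scaling, DESeq2 and limma-voom. Between the 10 highest and the 10 lowest libraries, 9 of 10 plasma protein genes were positive (median 1.38), and among libraries with at least 200 CPM of Rpl19-ps11, 8 of 10 major urinary protein genes were. Among the latter libraries all 12 plasma protein genes tested were positive (median 4.19), and the limma-voom median was 3.88. Without the 3 libraries highest in Alb, 7 plasma protein genes were tested, all positive, with a median of 1.11, and the median of the metabolism genes was -0.03. That median was 0.10 without replicate 32 and 0.14 among libraries with at least 200 CPM of Rpl19-ps11, against 1.01 for 10 against 10 libraries and 1.11 with limma-voom.

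Many hepatocyte genes were too sparse for that filter. When genes were instead kept for a mean of 5 CPM over the 30 libraries, edgeR called 133 of 8409 genes (1.58%), of which 84 were higher (0.999%) and 49 lower (0.583%) in Alb-high libraries. Of the 207 genes of the hepatocyte lists, 75 were tested here, and 21 were called higher and 0 lower. Genes with 0 or few counts in Alb-low libraries passed this filter through the Alb-high group alone, so the filter partly sets this direction and the count is a description. The 21 included Fgb, the fibrinogen beta chain, Bhmt, which remethylates homocysteine, and Apoc3, an apolipoprotein of triglyceride-rich particles. The bile salt pump gene Abcb11 was also called, but it had counts in 2 Alb-high libraries, and its Alb-high mean was 20.3 CPM with and 0.0143 CPM without the highest of them. Serpina1d, an alpha-1 antitrypsin gene with close copies that may share reads, had the smallest p among them. It had counts in 12 Alb-high libraries and 1 Alb-low library, with a highest value of 595 CPM against 0.232 CPM (log2 fold change 9.95, SE 1.60, adjusted p 0.00209, edgeR). Of its summed level in Alb-high libraries, 97.8% came from 3 libraries, and its mean there was 46.2 CPM with and 7.00 CPM without the highest.

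Fgb had counts in 9 Alb-high libraries, up to 69.7 CPM, and in 1 Alb-low library, at 0.818 CPM (log2 fold change 7.93, SE 1.49, adjusted p 0.00762). Apoc3 had 0 to 165 CPM with a median of 9.59 in Alb-high and 0 to 4.88 CPM with a median of 0 in Alb-low libraries, with an adjusted p of 0.0171 (edgeR). Pon1, an esterase carried on high-density lipoprotein, Cyp2d9, a cytochrome P450, Apoa5 and Itih4 had 0 counts in every Alb-low library. Against a floor of 3 counts over these libraries, they were at least 495-fold, 427-fold, 487-fold and 262-fold higher. These 4 genes had counts in 6, 7, 5 and 4 Alb-high libraries. Without its highest library, the Alb-high mean of Pon1 went from 27.2 to 9.02 CPM and that of Cyp2d9 from 19.2 to 6.47 CPM. Likewise, Apoa5 went from 22.4 to 10.6 CPM and Itih4 from 12.5 to 0.337 CPM, so these folds rest on few captures.

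Many calls at this filter rested on few libraries. Of the 84 genes called higher, 34 had counts in at least 8 of the 15 Alb-high libraries, 14 of those 34 were on the hepatocyte lists, and 27 of the 84 had counts in 3 or fewer. Of the 49 genes called lower, 7 had counts in at least 8 Alb-low libraries, and 25 had counts in 3 or fewer. Of the 133 genes, 6 higher and 1 lower had also passed the other filter, where 0 were called, and Serpina3k, Mup14, Gstp1, Utp4, Habp4 and Zfp60 were among these. With limma-voom at the same mean of 5 CPM, 6 genes were called, all higher and all on the hepatocyte lists: Apoa1, Apoc3, Fabp1, Serpina1c, Serpina3k and Ttr. Without replicate 32 the count was 147, with 31 hepatocyte genes higher and 0 lower. In the libraries with at least 200 CPM of Rpl19-ps11 it was 51, with 16 hepatocyte genes higher and 0 lower. With no filter at all it was 2250, with 89 hepatocyte genes higher and 3 lower. The mean of 5 CPM, the added fits and these subsets are alternatives to the fit that called 0 genes.

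The smallest p-values also included genes outside the hepatocyte lists, in both directions. Utp4, which acts in assembly of the small ribosomal subunit, had 0.436 to 415 CPM with a median of 42.5 in Alb-high and 0.208 to 47.4 CPM with a median of 4.49 in Alb-low libraries (log2 fold change 3.07, SE 0.85, adjusted p 0.413, edgeR). Spheroids had 70.0 ± 56.8 CPM of Utp4. Habp4, which encodes an RNA- and hyaluronan-binding protein, had medians of 10.4 and 1.72 CPM, and 91.6% of its summed level in Alb-high libraries came from 3 libraries, with a mean of 101 CPM with and 28.1 CPM without the highest. In the other direction, Zfp60, a zinc finger gene, had 0 to 21.8 CPM with a median of 2.13 in Alb-high and 0 to 531 CPM with a median of 6.40 in Alb-low libraries (log2 fold change -4.07, SE 1.11, adjusted p 0.413, edgeR). The remaining 5 genes lower by this rule were Zc3h7b, Cap1, Rrp9, Mycbp2 and Cbfa2t2, with log2 fold changes of -4.84, -4.77, -3.86, -3.02 and -3.31. In Alb-low libraries, 3 libraries carried 97.1% of the Cap1 sum, 87.7% of that of Zc3h7b, 87.5% of that of Cbfa2t2 and 81.7% of that of Rrp9. Without its highest library, the Alb-low mean of Zfp60 went from 48.2 to 13.7 CPM and that of Cap1 from 98.2 to 10.2 CPM. In the same way Zc3h7b went from 122 to 79.0 CPM, Cbfa2t2 from 156 to 51.0 CPM and Rrp9 from 52.0 to 34.5 CPM. Spheroids held counts of each of these 6 genes.

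Blood and other host cells were measured beside the hepatocyte genes. The 19 erythrocyte genes, led by globins, had 619 to 33002 CPM with a median of 2445 in Alb-high and 14.9 to 20647 CPM with a median of 925 in Alb-low libraries. Hbb-bs, a beta globin gene, had 191 to 13490 CPM in Alb-high libraries, all of which held it, and 0 to 7963 CPM in Alb-low libraries (log2 fold change 1.19, SE 1.03, adjusted p 0.901, edgeR). Of the 8 erythrocyte genes tested, 6 had a positive log2 fold change and 0 an unadjusted p under 0.05. At a mean of 5 CPM, edgeR called Alas2, which starts haem synthesis in erythroid cells, higher in Alb-high libraries (log2 fold change 8.68, SE 1.65, adjusted p 0.00762), with counts in 8 Alb-high and 2 Alb-low libraries. The 25 Kupffer cell and macrophage genes had 128 ± 155 CPM in Alb-high and 124 ± 192 CPM in Alb-low libraries, and the defining Kupffer genes were sparse, with 6 members at 0 in all libraries. The 23 endothelial genes had 109 ± 129 and 49.3 ± 48.9 CPM. Of these, Flt1, a receptor for vascular endothelial growth factor, was called higher at a mean of 5 CPM (log2 fold change 8.98, SE 1.75, adjusted p 0.00944, edgeR). It had counts in 4 Alb-high libraries and 1 Alb-low library, and its Alb-high mean was 19.1 CPM with and 2.32 CPM without the highest. The 12 genes of MHC class II and antigen presentation had 61.2 ± 85.7 and 159 ± 245 CPM. T and NK cell, B cell and neutrophil lists had means of 3.19 to 19.1 CPM in both groups. Where these lists differed in level, their part in the hepatocyte results was not tested.

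The 24 stellate cell and fibroblast genes had 463 ± 366 CPM in Alb-high and 650 ± 864 CPM in Alb-low libraries. Sparc, a matrix protein of these cells, had 0 to 219 CPM with a median of 9.21 in Alb-high and 0 to 1302 CPM with a median of 11.6 in Alb-low libraries (log2 fold change -1.76, SE 1.18, adjusted p 0.857, edgeR). Among libraries with at least 200 CPM of Rpl19-ps11, the log2 fold change of Sparc was 2.88. Vim and Des, which encode the filament proteins vimentin and desmin, had an unadjusted p under 0.05, with log2 fold changes of 2.75 (SE 1.11) and 1.37 (SE 0.68). Des was also counted in spheroids, at 60.0 ± 52.5 CPM. The median of the 6 genes tested was -0.44 with 2 positive, but 1.28 with all 6 positive under limma-voom, 1.31 among libraries with at least 200 CPM of Rpl19-ps11 and 0.28 without replicate 32.

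The 47 neuroendocrine genes, which define small-cell lung cancer, summed to 5963 CPM in Alb-high and 5639 CPM in Alb-low libraries on average. Of 32 tested, 18 had a positive log2 fold change, with a median of 0.08 against -0.04 over all genes. Ddc, which makes dopamine and serotonin, had 316 to 3311 CPM with a median of 981 in Alb-high and 231 to 2582 CPM with a median of 1103 in Alb-low libraries (log2 fold change 0.15, SE 0.34, adjusted p 0.979, edgeR). Chga, a granin of secretory vesicles, had a log2 fold change of 0.02 (SE 0.46), and Uchl1, a neuronal deubiquitinase, of -0.34 (SE 0.29). The 2 neuroendocrine genes with an unadjusted p under 0.05 were Hes6 (1.07, SE 0.52) and Sez6 (-2.03, SE 0.76), named after their values were seen. A median near that of all genes does not show that a gene was equal in both groups, since the intervals of single genes were wide.

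Genes of division were likewise divided in direction. Mki67 (chromosome 7, 135689784 to 135716361), which coats mitotic chromosomes, had 63.0 to 4380 CPM with a median of 639 in Alb-high and 86.3 to 1052 CPM with a median of 401 in Alb-low libraries. Of the Alb-high libraries, 4 lay above all Alb-low ones, while the lowest Alb-high value lay below the Alb-low range (log2 fold change 1.25, SE 0.44, adjusted p 0.512, edgeR). Of 55 mitosis genes tested, 28 had a positive log2 fold change (median 0.07), with Mki67 and Nuf2 higher and Ccnb1 and Cenph lower at an unadjusted p under 0.05. Stmn1, which destabilises microtubules, had medians of 4985 and 4054 CPM (log2 fold change 0.51, SE 0.26, adjusted p 0.747, edgeR). Of 41 DNA replication genes tested, 12 had a positive log2 fold change (median -0.36), and Fen1 and Slbp were lower at that p. The chromatin proteins H2afz and Hmgn2 had log2 fold changes of -0.04 (SE 0.25) and 0.18 (SE 0.26), and that of Hmgn2 was -0.62 between the 10 highest and the 10 lowest libraries.

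Several gene groups made by tumour and host alike had negative medians. Of 19 glycolysis and hypoxia genes tested, 3 had a positive log2 fold change (median -0.50). Ldha (chromosome 7, 46841475 to 46855627), which turns pyruvate into lactate, had 7.12 to 1042 CPM with a median of 298 in Alb-high and 22.3 to 1274 CPM with a median of 546 in Alb-low libraries. All Alb-high values lay within or below the Alb-low range (log2 fold change -1.06, SE 0.44, adjusted p 0.597, edgeR). At a mean of 5 CPM, Ero1l, an oxidase of the endoplasmic reticulum on the glycolysis and hypoxia list, was called higher (log2 fold change 5.06, SE 1.35, adjusted p 0.0418, edgeR), with counts in 11 Alb-high and 7 Alb-low libraries. The chaperone gene Dnajc3 was called lower at that filter (log2 fold change -4.88, SE 1.31, adjusted p 0.0441, edgeR), with counts in 10 Alb-high and 13 Alb-low libraries. Its Alb-low mean was 58.1 CPM with and 26.5 CPM without the highest library. Of 12 mitochondrially encoded genes, 2 were positive (median -0.37), and mt-Co3, a cytochrome oxidase subunit, had medians of 803 and 2904 CPM (log2 fold change -1.58, SE 0.64, adjusted p 0.597, edgeR). Of 81 cytosolic ribosomal protein genes tested, 19 were positive (median -0.19). Of 10 interferon and MHC class I genes tested, 5 were positive (median 0.00), and Psmb8, an immunoproteasome subunit, had a log2 fold change of 3.36 (SE 1.22, adjusted p 0.542, edgeR). Of its sum in Alb-high libraries, 88.1% came from 3 libraries, and its mean there was 183 CPM with and 76.4 CPM without the highest.

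**Figure D3:**
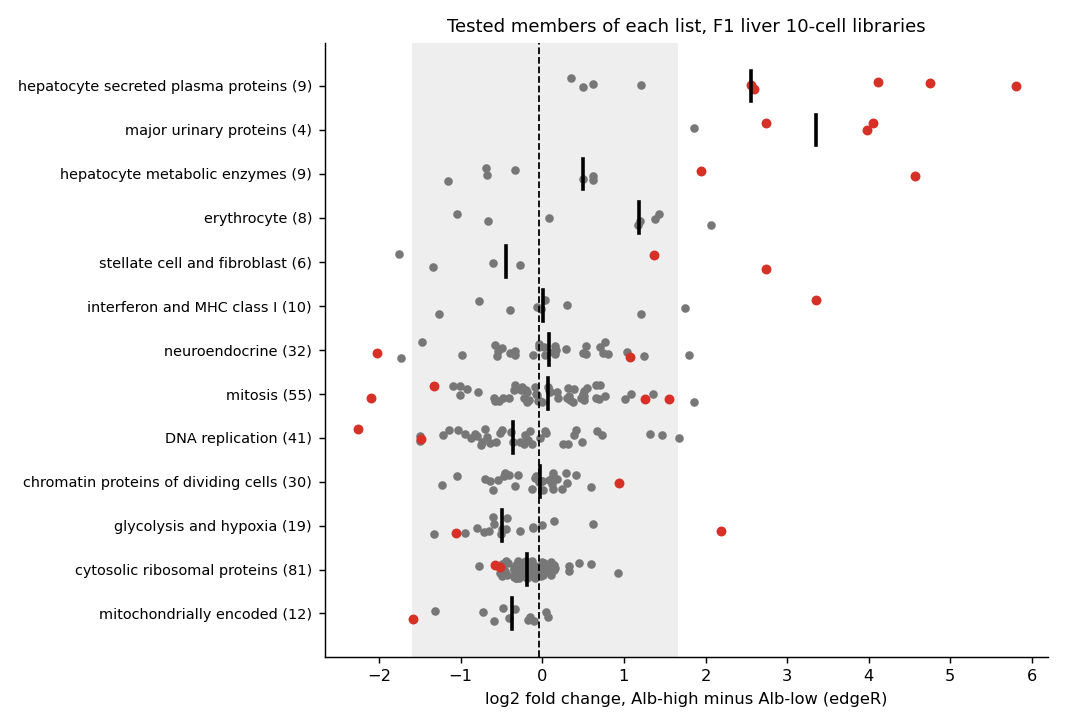
Each point is a tested gene of a list, at its log2 fold change between Alb-high and Alb-low F1 liver libraries (x axis), red where the unadjusted p was under 0.05. Black bars are list medians, the dashed line is the median of all 6045 genes (-0.04) and the grey band spans their 5th to 95th percentile. The plasma protein and major urinary protein lists, with medians of 2.55 and 3.36, lie to the right of the others.

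The same division was made in the libraries most like these. In nude liver the 16 Alb-high libraries had 326 to 1335 CPM of Alb and the 16 Alb-low libraries 0 to 269 CPM, so the Alb-low range there overlapped the Alb-high range of F1 captures. edgeR called 0 of 6438 genes (0%) in nude liver, where 565 (8.78%) had an unadjusted p under 0.05, and limma-voom called 0. The plasma protein genes summed to a median of 1946 CPM in Alb-high and 1124 CPM in Alb-low nude libraries. Of 19 plasma protein genes tested in nude liver, 18 had a positive log2 fold change (median 0.94, against -0.04 over all genes) and 4 an unadjusted p under 0.05. The mean sum of the major urinary protein genes was 131 CPM in Alb-high and 21.4 CPM in Alb-low nude libraries, a ratio of 6.13 against 6.09 in F1 captures. Serpina3k had a log2 fold change of 0.19 (SE 0.88) in nude liver, Gstp1 of 0.64 (SE 0.35), Apoe of 1.92 (SE 0.58) and Gstm1, another glutathione transferase, of 3.08 (SE 0.89). The difference between hosts was tested in 1 fit, in which 27 of 9099 genes were called (0.297%), with 17 larger (0.187%) and 10 smaller (0.11%) in F1. The 17 held 4 hepatocyte genes, Apoa5, Bhmt, Serpina1d and Fgb. Bhmt had means of 33.7 and 0.112 CPM in Alb-high and Alb-low F1 libraries and of 9.08 and 17.3 CPM in nude libraries (difference 8.58 on the log2 scale, SE 1.87, adjusted p 0.0324, edgeR). limma-voom called 0 genes for this difference.

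In the pool-and-split controls from F1 liver, which share pooled material, Alb also varied between libraries. It was at 0 counts in 11 of 24 and reached 385 CPM in another. The plasma protein genes had 3.01 to 2244 CPM with a median of 888 in the 12 Alb-high pools and 22.5 to 2071 CPM with a median of 634 in the 12 Alb-low pools. Spheroids, which hold no host cells, had a mean sum of 115 CPM over the same genes. edgeR called 0 of 4159 genes (0%), with 420 (10.1%) at an unadjusted p under 0.05, and limma-voom called 2. Of the 4 plasma protein genes tested in pools, 1 had a positive log2 fold change (median -1.22, against -0.07 over all genes). The difference between captures and pools was called for 44 of 8360 genes (0.526%), 21 larger (0.251%) and 23 smaller (0.275%) in captures. None of the 44 was on the hepatocyte lists, and limma-voom called 0. At a mean of 5 CPM, edgeR called 239 genes in nude liver (2.61%, with 1.35% higher) and 494 in pools (5.89%, with 3.47% higher). Among these calls, 9 genes of the hepatocyte lists were higher and 1 lower in nude liver, and 9 were higher and 1 lower in pools. At that filter the difference was called for 173 genes against nude liver (1.89%) and for 391 against pools (4.46%).

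**Figure D4:**
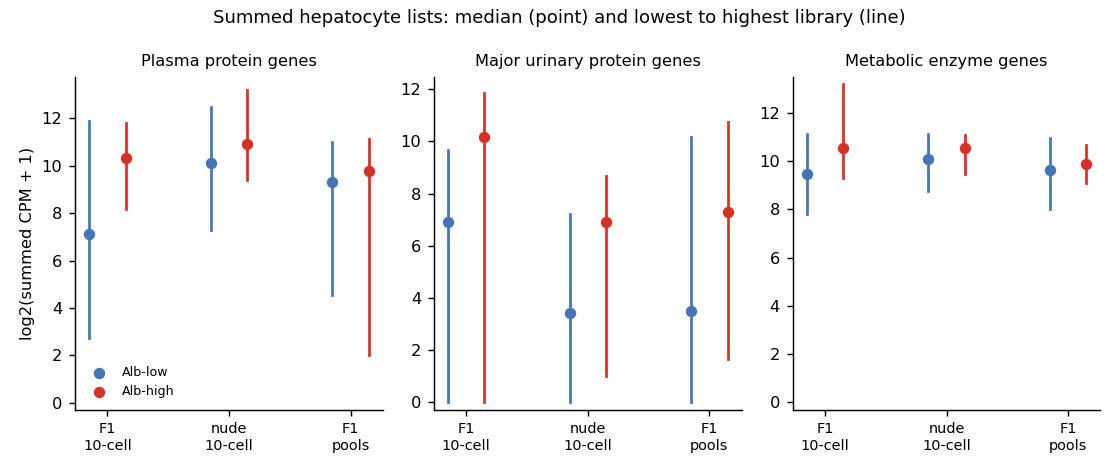
Points are medians and lines run from the lowest to the highest library, as log2(summed CPM + 1) of 3 hepatocyte lists (y axis), for Alb-low (blue) and Alb-high (red) libraries of 3 sets. F1 captures have 15 libraries a group, nude captures 16 and F1 pools 12. Plasma protein medians are 139 and 1284 CPM in F1 captures, 1124 and 1946 CPM in nude captures and 634 and 888 CPM in F1 pools.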

How the data were processed

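Expected counts per gene were deposited by the authors as 1 table of 199 libraries, and 10.7% of the values were not whole. The submitters' processing notes name RSEM, Bowtie2, GRCm38 and GRCh38.p12, with no versions or roles. Values were rounded, and 92 ERCC rows and Alb were left out of the fits and library sizes. Groups came from the labels, and 0 columns were unmapped. The members, gene lists and tests were chosen with earlier results of these data known.

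Alb-high and Alb-low libraries were compared with edgeR 4.0.16 (TMM, filterByExpr, robust quasi-likelihood F test, Benjamini-Hochberg) in R 4.3.3, and genes were called at an adjusted p under 0.05. The SE is the size of the log2 fold change over the root of F. DESeq2 1.42.0 and limma 3.58.1 were alternatives. The fits of nude liver, pools and the differences used the same model, and 100000 resamples gave the permutation tests. The fit was tested on simulated data with 200 changed genes, which gave 2 false calls. The lowest chi-squared per degree of freedom among 465 pairs of F1 libraries was 124.7, so no pair looked like 1 library deposited more than once. Counts lack molecular identifiers, so floors cover counting error only. Genes were named by the smallest p (6 a direction, where none was called), as the 6 highest members of each of 28 lists, as called list members, and as the 4 in each direction of a difference fit. Ttr, Apoc1, Vim, Hes6, Sez6, Nuf2, Ccnb1, Cenph, Fen1, Slbp and Ahsg were named after their values were seen. Differences in depth over 1646395 to 5432858 counts limit the detection of sparse genes. Some list members are not reported here.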

Additional observations from a re-analysis of the deposited data

Results flagged for a closer look

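The change between Alb-high and Alb-low libraries differed between F1 and nude liver for 27 genes, and between F1 captures and F1 pools for 44 genes, each by edgeR's test of the difference itself. No explanation was weighed. Differences are on the log2 scale, with the F1 change first, and limma-voom called 0 in both.

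Against nude liver, the difference was larger in F1 for Pxmp2 (10.55), Apoa5 (10.72), Crybg3 (9.21) and Bhmt (8.58), and also for the list members Serpina1d (6.55) and Fgb (7.54). It was smaller for Slc2a4rg-ps (-8.68), Trim11 (-9.33), Phc3 (-7.06) and Zcchc10 (-6.41). For Crybg3 the nude Alb-low mean was 593 CPM, against 7.33 CPM in nude Alb-high, while F1 means were 1.90 and 11.7 CPM. Apoa5 had 0 counts in every Alb-low F1 library, so its value is fitted against a group at 0, depends on the prior count and is no bound. Pxmp2, a peroxisomal membrane protein, had counts in 6 Alb-high and 4 Alb-low F1 libraries.

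Against pools, the difference was larger in F1 captures for Ints6l (11.18), Fam229b (8.45), 2310035C23Rik (8.06) and Lbhd1 (7.33). It was smaller for Limch1 (-13.96), Iqsec3 (-12.11), Mnd1 (-11.29) and Slain2 (-9.96), and for the list member Klf6, an immediate early factor (-10.04). Limch1 had counts in 7 Alb-high and 0 Alb-low pools, so its value is likewise fitted against a group at 0, and Iqsec3 had counts in 4 and 1.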

How the results depend on the processing

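The count of 0 genes in F1 captures was also found with RLE and TMMwsp scaling, 10 against 10 libraries, Alb as a continuous covariate, the other Alb ranking and totals, ranking on plasma protein genes, the 3 technical covariates and without the 3 libraries highest in Alb. It was 2250 without a filter, 133 at a mean of 5 CPM, 26 with DESeq2, 2 with limma-voom and 2 among libraries with at least 200 CPM of Rpl19-ps11 (Apoa1 and Serpina1c). Leaving out each library gave 0 to 1 calls, the 1 being Apoa1 without replicate 32. Alternatives chosen after seeing the data combined the mean of 5 CPM with other choices. They gave 147 without replicate 32, 51 with at least 200 CPM of Rpl19-ps11, 111 without the 3 libraries highest in Alb, 6 with limma-voom and 132 with DESeq2, of which 114, 27, 86, 3 and 33 were among the 133. Cap1 went from -4.77 to 0.22 when libraries were ranked on plasma protein genes. Nude liver gave 2224 without a filter and 239 at a mean of 5 CPM, and F1 pools gave 2671, 494 and, with limma-voom, 2. At that filter 3 of the 84 higher F1 genes (3.57%) were also higher in nude liver (2.42% of 124) and 8 (9.52%) in pools (2.75% of 291). Over all genes tested at that filter, 1.35% were called higher in nude liver and 3.47% in pools. The difference from nude liver was called for 1368 genes without a filter, 173 at a mean of 5 CPM and 0 with limma-voom, and that from pools for 70 with RLE, 1600, 391 and 0. The causes of these shifts were not tested. Over all genes tested, the median log2 fold change was -0.04, but 0.08 with limma-voom and -0.15 for 10 against 10 libraries, and in pools 0.51 with limma-voom against -0.07. No paired analysis was possible because Alb-high and Alb-low libraries are captures of 1 label group and share no replicate number.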
